A study of Homo sapiens with 9 samples.

Results

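Kinesins are motor proteins that use ATP to move along or remodel microtubules, and this account follows their genes in LN229 cells given sodium formate. The members were the protein-coding genes with a symbol of the form KIF, a number and an optional letter, together with KIFC1, KIFC2 and KIFC3. The count table held 38 of them among its 23727 genes, and 35 of the 38 passed the filter on low counts. They were divided by textbook role into 13 mitotic kinesins, 15 transport kinesins and 10 kinesins with ciliary, signalling, centriolar or mixed roles; 13, 13 and 9 of these passed the filter. KIF2B, KIF19, KIF25 and KIF26A were not analysed here.

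LN229 is an established human glioblastoma cell line; another label field spells it LN299. The culture medium of all groups held 10% fetal bovine serum, 2 mM glutamine and 17 mM glucose. The groups were untreated cells at 0 h, cells given 500 µM sodium formate for 8 h and cells given the same dose for 24 h. Each group had 3 libraries of stranded mRNA, and the labels do not say whether these came from separate cultures, so the p-values measure the spread between these libraries, which may be technical. The samples used here hold no untreated group at 8 h or 24 h, so formate and time in culture cannot be told apart.

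Mitotic kinesins build the spindle, align and hold chromosomes and carry out cytokinesis, and the transcripts of most of them are known to rise towards G2 and mitosis and to fall afterwards. Transport kinesins carry vesicles, mitochondria and protein complexes in interphase cells, most of them towards microtubule plus ends, in glia as in neurons. Many mitotic genes are known targets of a pair of promoter elements, the CCAAT box bound by NF-Y and the cell cycle genes homology region (CHR), which the DREAM and MuvB complexes bind.

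RefSeq windows of 300 bases (250 before and 50 after each transcript start, GRCh38.p14) were found for 31 of the 38 members. The letters TTTGAA and TTCGAA, the common forms of the CHR, and CCAAT were searched on both strands. At least 1 TTTGAA or TTCGAA was present in 11 of 13 mitotic kinesin genes and in 1 of 11 transport kinesin genes (KIF5B), against 16.4% of all 35116 windows and 19.5% of 27305 genes. CCAAT was present in 11 of 13 mitotic and 4 of 11 transport genes, against 39.7% of genes and 34.6% of windows. Both kinds of letters stood in the windows of 10 of 13 mitotic and 1 of 11 transport genes, against 7.85% of genes and 6.38% of windows. A match is a run of letters and not a measured binding site. The 150 bases before the RefSeq start follow for the 4 mitotic kinesins that edgeR called at 24 h without a replicate block and that have such a window. They follow also for KIF11 and KIF22, which that fit did not call, and for KIF5B, the transport kinesin with the highest level per length. KIF22 was called at 24 h against 0 h with the replicate block and by DESeq2. Capitals mark CCAAT or its reverse complement ATTGG, and TTTGAA, its reverse complement TTCAAA, or TTCGAA, which reads alike on both strands.
KIF4A (chrX:70289954-70290103, plus strand): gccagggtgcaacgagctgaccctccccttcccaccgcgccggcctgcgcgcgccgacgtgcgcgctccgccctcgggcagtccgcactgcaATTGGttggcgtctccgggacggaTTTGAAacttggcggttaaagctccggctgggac
KIF18A (chr11:28108157-28108306, minus strand): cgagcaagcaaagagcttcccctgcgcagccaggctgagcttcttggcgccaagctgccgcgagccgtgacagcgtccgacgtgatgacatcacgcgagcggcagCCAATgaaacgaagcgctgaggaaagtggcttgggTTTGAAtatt
KIF20A (chr5:138178962-138179111, plus strand): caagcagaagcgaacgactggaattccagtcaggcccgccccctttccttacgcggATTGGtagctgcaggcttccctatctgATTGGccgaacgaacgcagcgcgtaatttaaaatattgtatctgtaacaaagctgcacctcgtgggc
KIF23 (chr15:69414199-69414348, plus strand): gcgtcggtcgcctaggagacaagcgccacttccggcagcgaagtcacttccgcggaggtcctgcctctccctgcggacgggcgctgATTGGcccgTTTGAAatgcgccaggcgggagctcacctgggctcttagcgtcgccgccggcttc
KIF11 (chr10:92592980-92593129, plus strand): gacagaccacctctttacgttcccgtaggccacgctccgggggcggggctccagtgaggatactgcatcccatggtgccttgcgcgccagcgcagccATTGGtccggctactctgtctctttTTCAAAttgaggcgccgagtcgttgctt
KIF22 (chr16:29790601-29790750, plus strand): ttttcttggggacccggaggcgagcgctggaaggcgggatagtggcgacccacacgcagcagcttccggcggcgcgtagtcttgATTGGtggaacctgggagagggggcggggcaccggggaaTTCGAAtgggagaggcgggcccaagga
KIF5B (chr10:32056426-32056575, minus strand): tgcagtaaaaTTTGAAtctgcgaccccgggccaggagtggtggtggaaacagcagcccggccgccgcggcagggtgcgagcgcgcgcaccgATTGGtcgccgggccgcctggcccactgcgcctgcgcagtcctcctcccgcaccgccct

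In KIF4A, KIF18A, KIF23, KIF11 and KIF22 the CCAAT letters came first and the CHR letters followed nearer the start. TTTGAA began 34 bases before the start in KIF4A, 10 in KIF18A and 55 in KIF23, TTCAAA began 28 bases before it in KIF11, and TTCGAA began 27 before it in KIF22. KIF20A had ATTGG at 94 and 67 bases before the start and neither CHR form in its window, and KIF2C had none of the 3 motifs. In KIF5B the order was the reverse, with TTTGAA 140 and ATTGG 59 bases before the start. In KIF14, KIF18B, KIF20B, KIFC1 and KIF4B the CHR letters lay after the RefSeq start. GENCODE release 29 starts some transcripts further upstream, so that all 150 printed bases of KIF18A and KIF20A, and 103 of those of KIF23, lie within the GENCODE gene.

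Total counts per library ran from 22222298 to 25848242, and 15273 genes passed the filter. Levels below are CPM, counts scaled to library sizes corrected by TMM; levels of different genes are compared only as CPM per kilobase of exon. Of 10 astrocyte and glioblastoma markers 9 were in the table and 8 passed the filter; GFAP, the defining astrocyte marker, lay between 0.129 and 0.426 CPM and did not pass, whereas VIM, CD44 and NES were at 3199, 704 and 888 CPM or more in every library. At 24 h against 0 h, S100B and SLC1A3 of this list were called higher by edgeR, against 2.47% of tested genes. None of the list was called lower, against 1.77%. With the replicate block and by DESeq2, VIM and CD44 were called lower and OLIG2 was also called higher. The shares of tested genes were 11.6% lower and 12.6% higher with the block, and 5.13% and 5.72% by DESeq2. VIM has 24.4% of its exon bases under an opposite-strand gene. Of 8 microglial and endothelial markers 5 were in the table and 1, VWF, passed the filter; the list summed to between 0.501 and 0.990 CPM at 0 h and between 1.25 and 1.95 CPM at 24 h, and VWF was called higher. The 6 fibroblast markers summed to between 43.4 and 65.2 CPM at 0 h and between 77.7 and 106 CPM at 24 h. None of the 6 was called by edgeR, against 4.25% of tested genes, and 3 had an unadjusted p under 0.05, against 26.4%. DCN, LUM and PDGFRA were called higher with the replicate block, against 12.6%, and by DESeq2, against 5.72%. COL1A1 had a log2 fold change of -0.47, with all 24 h libraries below those of 0 h, against 14.4% of tested genes. COL1A2 and COL3A1 had 0.01 and 0.06. The part of these markers in the kinesin results was not tested.

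KIF20A, the motor that carries the chromosomal passenger complex to the central spindle, had the highest level of the family, at 132 ± 10.2 CPM per kilobase (SD, n = 3) in untreated cells. KIF5B, the ubiquitous conventional kinesin heavy chain, followed at 83.5 ± 10.1 CPM per kilobase, and KIF2C, a microtubule depolymerase of centromeres, at 76.3 ± 11.8. The values of KIF5B and KIF2C did not differ beyond their spread. KIFC1 (57.1 ± 9.03) and KIF11 (56.4 ± 2.53), which focus spindle poles and push them apart, came next and were within each other's spread.

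Apart from KIF4B, the mitotic kinesins averaged between 14.3 CPM per kilobase for KIF18A and 118 for KIF20A over the 9 libraries. KIF4B, an intronless relative of KIF4A, averaged 0.161 CPM per kilobase, with 9 to 23 counts per library. Of the stretches of 75 bases in KIF4B transcripts, 4.53% occur unchanged in KIF4A transcripts. KIF4B had 148 counts in all, against 37430 for KIF4A, so the uncertain share of the KIF4B counts may be larger than that. How many of them came from KIF4A was not tested. Among the tested transport kinesins, levels ran from 2.00 CPM per kilobase for the neuronal heavy chain KIF5A to 82.1 for KIF5B. KIF3B, which pairs with KIF3A in the heterotrimeric kinesin-2 motor, averaged 28.3 CPM per kilobase, and KIF3A averaged 7.37. KIF2A, a depolymerase used both at spindle poles and in interphase, was the most abundant of the remaining kinesins, at 21.6 CPM per kilobase. Same-strand gene annotation covers 8.97% of the exon bases of KIF2A, so a share of its counts is uncertain too.

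The neuronal vesicle motors KIF1A and KIF17 and the epithelial KIF12 did not pass the filter. They had at most 9 counts in any library and 37, 41 and 37 counts in all.

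**Figure D1:**
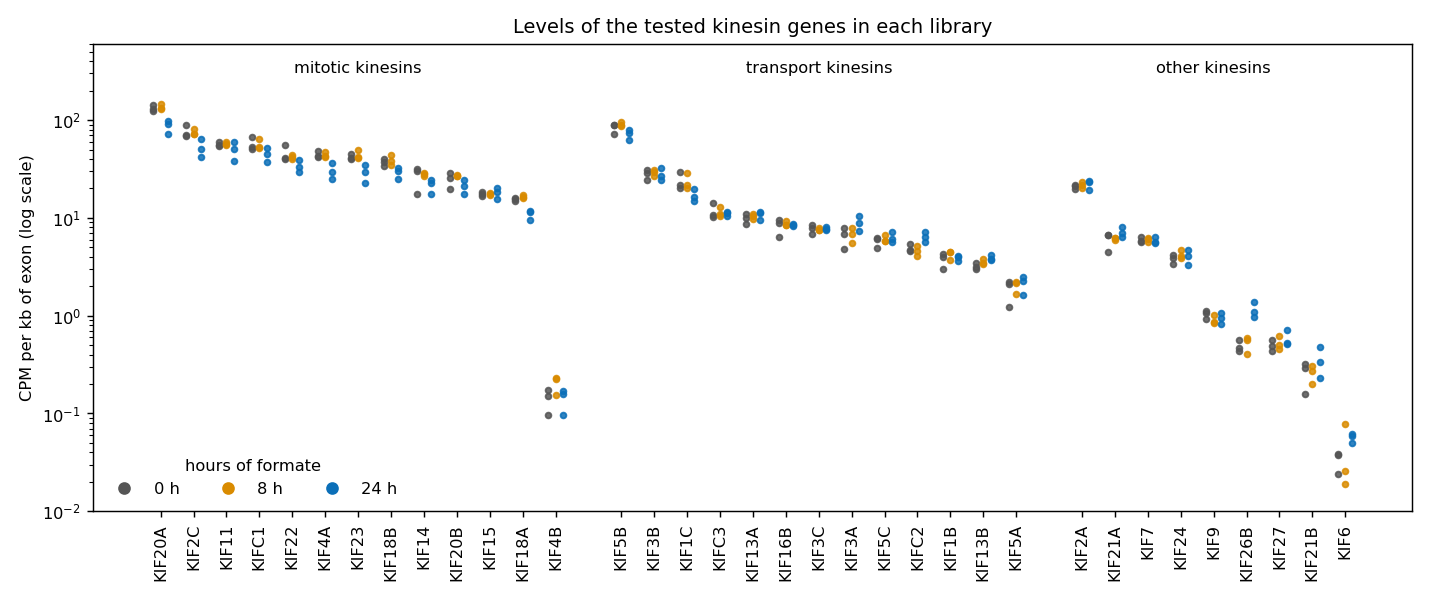
Level of each of the 35 tested kinesin genes as CPM per kilobase of exon on a log axis, with 1 point per library, coloured by hours of formate; genes are ordered by mean level within mitotic, transport and other kinesins. KIF20A lies highest, at 71.5 to 145 CPM per kilobase, and KIF5B is the highest transport kinesin.

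The comparison of 24 h with 0 h asked which kinesins had changed a day after formate was added. KIF20A, KIF18A and KIF4A, all mitotic, fell, and KIF26B rose. Among the mitotic kinesins, 3 of 13 were called lower and 0 higher in the quasi-likelihood test of edgeR, with p-values adjusted by Benjamini and Hochberg's method over all 15273 genes, where 1.77% of tested genes were called lower. The fitted change was below 0 for 11 of 13 mitotic kinesins, against 49.1% of all tested genes, and their median was -0.35 on the log2 scale, against 0.01 over all genes. All 3 libraries of 24 h lay below all 3 of 0 h for 7 of the 13, against 14.4% of tested genes. In bulk RNA, fewer cells in mitosis and less RNA per mitotic cell cannot be told apart.

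KIF20A (chromosome 5, 138178719 to 138187715, plus strand) was at 486, 566 and 518 CPM in the untreated replicates 1 to 3 and at 391, 363 and 283 CPM at 24 h. Every library of 24 h lay below every untreated one. As a log2 fold change the fit gave -0.60 with a standard error of 0.13 (adjusted p = 0.0329 by edgeR), a level 1.51-fold lower. An opposite-strand gene covers 5.05% of its exon bases, and the strand setting of the counts is not given in the sources used here.

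KIF18A (chromosome 11, 28020620 to 28108308, minus strand), which dampens chromosome movements at kinetochores during alignment, was at 69.4, 75.2 and 72.7 CPM at 0 h and at 55.2, 53.7 and 44.6 CPM at 24 h. The groups did not overlap, and the untreated libraries lay close together. The fitted change was -0.50 (standard error 0.10, adjusted p = 0.0277 by edgeR), or 1.42-fold lower.

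KIF4A (chromosome X, 70290090 to 70420832, plus strand), a chromosome-bound motor that limits the length of central spindle microtubules, was at 219, 195 and 192 CPM at 0 h and at 165, 134 and 112 CPM at 24 h. The highest 24 h library stayed below the lowest untreated one. The fitted change was -0.56 (standard error 0.13, adjusted p = 0.0412 by edgeR), or 1.48-fold lower.

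**Figure D2:**
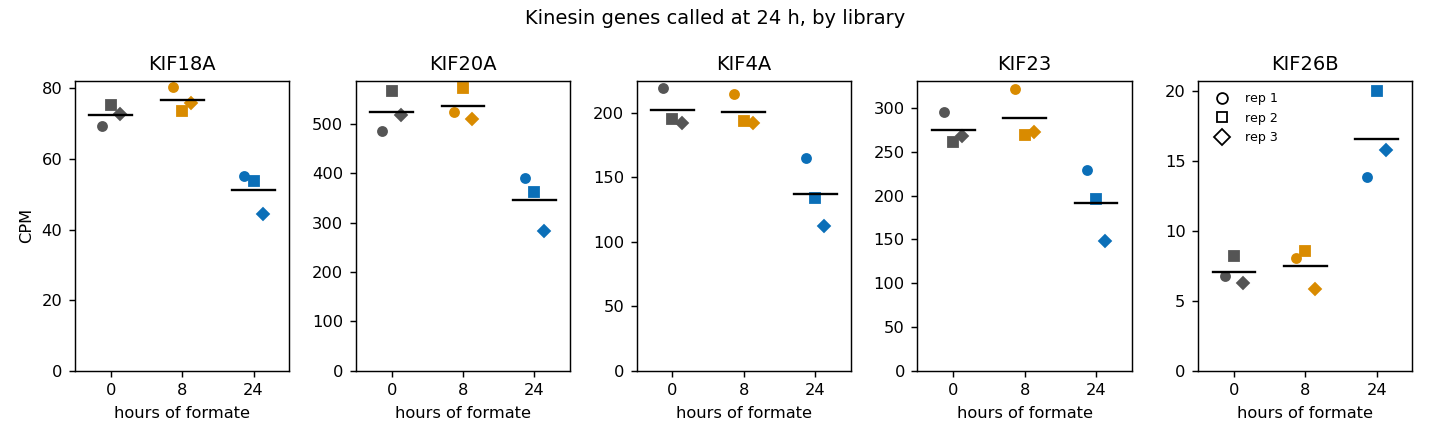
CPM of the 5 kinesin genes called in 24 h against 0 h or 24 h against 8 h, by hours of formate; each symbol is a library (circle, square and diamond for replicates 1, 2 and 3) and the bar is the mean of 3. In each panel the 24 h libraries lie apart from the untreated ones, below them for KIF18A, KIF20A, KIF4A and KIF23 and above them for KIF26B.

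The same-numbered libraries of 0 h and 24 h deviated together, so the fit with the replicate number as a block is given beside these counts. That pairing was not clear-cut, as untreated replicate 3 and replicate 2 of 24 h also deviated together (r = 0.27). The block also shares its replicate effects with the 8 h libraries, and the numbers were not taken to pair 8 h with 24 h. With the block, 8 of 13 mitotic kinesins were called lower, against 11.6% of tested genes: the 3 above with KIF2C, KIF23, KIF22, KIFC1 and KIF18B. DESeq2 called 6 lower, against 5.13% of tested genes. The calls also rested on single libraries. Without the block, no mitotic kinesin passed when replicate 2 or replicate 3 of 24 h, replicate 2 or 3 of 0 h, or replicate 3 of 8 h was left out, and 5 passed without replicate 1 of 24 h. In the fits lacking replicate 2 or 3 of 24 h, 0 genes of any kind were called. The counts over all genes were 574 and 418 when untreated replicates 2 and 3 were dropped, 284 when replicate 3 of 8 h was, and 899 when replicate 1 of 24 h was. KIF4A was also not called without untreated replicate 1 (adjusted p = 0.0687 by edgeR) or without replicate 2 of 8 h (0.0639), and over all alternatives its adjusted p ran from 0.0012 to 0.303. With the block, between 6 and 11 of the 13 were called over the 9 fits that each left out 1 library.

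The 5 further mitotic kinesins that edgeR called with the block and not without it had log2 fold changes from -0.56 to -0.34; DESeq2 called KIF2C, KIF23 and KIF22 of them. KIF2C was at 328, 257 and 250 CPM at 0 h and at 232, 183 and 154 CPM at 24 h (log2 fold change -0.56, standard error 0.16; adjusted p = 0.0632 by edgeR without the block and 0.00152 with it). KIF23, the motor subunit of centralspindlin in cytokinesis, was at 296, 261 and 268 CPM at 0 h and at 229, 196 and 149 CPM at 24 h (log2 fold change -0.52; adjusted p = 0.0653 without the block and 0.00368 with it). In both genes the groups did not overlap, and in KIF2C untreated replicate 1 was the highest of all 9 libraries.

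KIF22, which pushes chromosome arms towards the metaphase plate, had a log2 fold change of -0.43 (adjusted p = 0.0965 by edgeR, 0.00891 with the block). KIFC1, a minus-end-directed motor that bundles spindle microtubules, had -0.35 (0.162 and 0.0115), and the groups overlapped. KIF18B, which regulates astral microtubule length, had -0.34 (0.136 and 0.0401). Opposite-strand genes cover 12.7% of the exon bases of KIFC1 and a slightly larger share of those of KIF22.

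The other 5 mitotic kinesins were called in neither fit. KIF11, the bipolar motor that separates spindle poles, was at 263, 272 and 287 CPM at 0 h and at 288, 247 and 186 CPM at 24 h. Replicate 1 of 24 h was level with the highest untreated library and replicate 3 lay below all of them; the log2 fold change was -0.19 with a 95% interval from -0.50 to 0.12. KIF15, a motor that can take over spindle pole separation from KIF11, had a log2 fold change of 0.04 with an interval from -0.18 to 0.26. KIF14 (-0.30, interval -0.73 to 0.14) and KIF20B (-0.23, interval -0.57 to 0.10), both of cytokinesis, were lowest in replicate 1 among the untreated libraries, and KIF4B had an interval from -0.73 to 0.76.

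Transport kinesins were tested in the same fit. None of the 13 was called, against 4.25% of tested genes in either direction; 4 had an unadjusted p under 0.05, against 26.4% of tested genes, and DESeq2 called 0, against 10.8%. Their median log2 fold change was 0.05, with 4 fitted below 0 and 9 above. With the replicate block, 3 of 13 were called, against 24.1% of tested genes: KIF1C lower and KIF3A and KIFC2 higher.

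KIF1C, a fast motor for long-range vesicle transport, was at 250, 184 and 175 CPM at 0 h and at 168, 140 and 127 CPM at 24 h. The groups did not overlap, and the log2 fold change was -0.49 (interval -0.87 to -0.11; adjusted p = 0.117 by edgeR, 0.00153 with the block). KIF3A was at 33.2, 46.7 and 54.2 CPM at 0 h and at 50.8, 71.2 and 61.1 CPM at 24 h, with overlapping groups (0.45, adjusted p = 0.162 and 0.00834). KIFC2 was at 20.4, 21.0 and 24.0 CPM at 0 h and at 24.9, 28.6 and 32.1 CPM at 24 h (0.39, adjusted p = 0.0969 and 0.0127), and 17.8% of its exon bases lie under an opposite-strand gene. KIFC2 and KIF13B were the 2 of 13 transport kinesins with every 24 h library above every untreated one, against 15.9% of tested genes.

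KIF5B and KIF3B were called in neither fit. KIF5B was at 422, 525 and 524 CPM at 0 h and at 468, 431 and 368 CPM at 24 h (log2 fold change -0.22, interval -0.49 to 0.06). KIF3B was at 151, 186 and 175 CPM at 0 h and at 196, 164 and 148 CPM at 24 h (-0.01, interval -0.29 to 0.26). In both genes the groups overlapped.

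Of the kinesin-2 subunits, KIF3C had a log2 fold change of 0.00 with an interval from -0.21 to 0.21, and KIF3A and KIF3B are described above. The heavy chains KIF5C and KIF5A had 0.14 and 0.21, and the endosome and vesicle motors KIF13A, KIF16B and KIF1B had 0.12, 0.03 and 0.05. KIF13B, another vesicle motor, had 0.27 (interval 0.06 to 0.49, adjusted p = 0.119 by edgeR) and all its 24 h libraries above those of 0 h. KIFC3, a minus-end motor of cell junctions and centrosomes, had -0.08. Opposite-strand overlap was 7.78% of exon bases for KIF13B and 5.6% for KIFC3.

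KIF26B (chromosome 1, 245154985 to 245709431, plus strand) rose most in the family. It is an atypical kinesin that lacks motor activity and is known for roles in cell adhesion, polarity and Wnt5a signalling. It was at 6.79, 8.20 and 6.24 CPM at 0 h and at 13.8, 20.0 and 15.8 CPM at 24 h. Every 24 h library lay above every untreated one, and the fitted change was 1.22 (standard error 0.19, adjusted p = 0.0170 by edgeR), or 2.33-fold higher. It was not called without replicate 2 of 24 h (adjusted p = 0.104) or without replicate 3 of 24 h (0.0979), where 0 of all genes were called, and with the block its adjusted p was 0.000201; over all alternatives it ran from 1.29e-06 to 0.27.

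Of the 9 tested kinesins with other roles, KIF26B alone was called, against 2.47% of tested genes called higher. It was also the only one called with the block, against 12.6%, and by DESeq2, against 5.72%. KIF2A was at 93.8, 104 and 102 CPM at 0 h and at 114, 112 and 92.6 CPM at 24 h, and its log2 fold change was 0.09 (interval -0.14 to 0.32). KIF21A, which restrains microtubule growth at the cell cortex, was at 45.8, 67.4 and 67.4 CPM at 0 h and at 65.0, 81.9 and 71.1 CPM at 24 h (0.27, interval -0.05 to 0.59). Its groups overlapped, and its relative KIF21B had 0.43. The Hedgehog regulator KIF7 was at 31.8, 28.6 and 28.98 CPM at 0 h and at 27.4, 28.0 and 31.6 CPM at 24 h (-0.04, interval -0.26 to 0.18), and its relative KIF27 had 0.23. KIF24, a depolymerase of centrioles, had 0.08, and the axonemal kinesins KIF9 and KIF6 had -0.14 and 0.75. KIF6 had 5 to 22 counts per library and all its 24 h libraries above those of 0 h. The interval of KIF6 ran from -0.28 to 1.79. The exon bases under an opposite-strand gene were 11.8% for KIF7, 13.1% for KIF27 and 17.9% for KIF9.

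**Figure D3:**
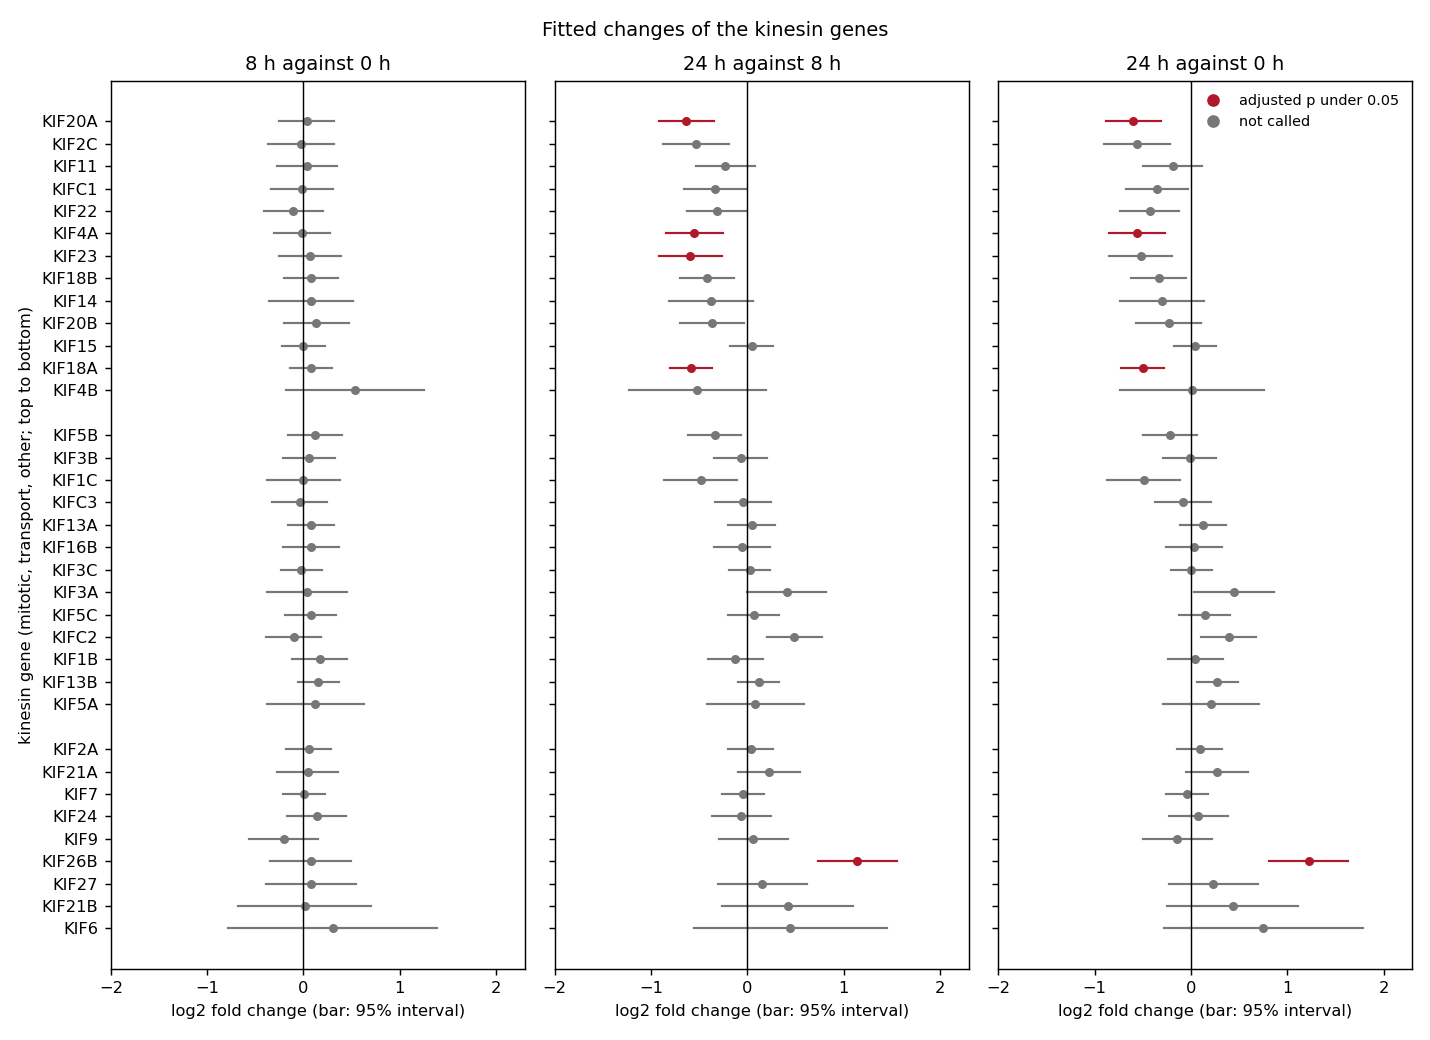
Fitted log2 fold change of each tested kinesin (point) with its 95% interval (bar) for 8 h against 0 h, 24 h against 8 h and 24 h against 0 h; red marks an adjusted p under 0.05. The mitotic kinesins, in the top block, lie mostly left of 0 in both comparisons with 24 h and near 0 at 8 h, and KIF26B lies farthest right.

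The comparison of 8 h with 0 h asked whether the kinesins had moved early. By edgeR's quasi-likelihood test none of the 35 tested members was called, against 0.0% of all genes, none had an unadjusted p under 0.05, against 0.517% of tested genes, and DESeq2 and the fit with the block called 0. The medians were 0.04 for the mitotic, 0.07 for the transport and 0.05 for the other kinesins, against -0.02 over all genes, and 5 of 13 mitotic kinesins were fitted below 0, against 56.7% of tested genes. In no member did the libraries of 8 h and 0 h fail to overlap, against 3.31% of tested genes. KIF20A was at 524, 573 and 511 CPM, KIF18A at 80.3, 73.7 and 75.9 CPM and KIF26B at 8.08, 8.53 and 5.83 CPM at 8 h. The 95% intervals at 8 h were -0.25 to 0.32 for KIF20A, -0.14 to 0.30 for KIF18A and -0.35 to 0.50 for KIF26B.

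The comparison of 24 h with 8 h tests whether both effects against the untreated libraries differ, and it shares the 24 h libraries with the comparison above. KIF20A, KIF18A, KIF4A and KIF23 were called lower, 4 of 13 mitotic kinesins, against 1.72% of tested genes. Their changes were -0.63 for KIF20A (adjusted p = 0.0288 by edgeR), -0.58 for KIF18A (0.0203), -0.55 for KIF4A (0.0440) and -0.59 for KIF23 (0.0472). For 10 of 13 mitotic kinesins all libraries of 24 h lay below all of 8 h, against 16.2% of tested genes. The fitted change was below 0 for 12 of 13, against 47.9% of tested genes, with a median of -0.42, and DESeq2 called 6 lower, against 4.26%. KIF23 was at 322, 269 and 273 CPM at 8 h, so that its lowest value at 8 h stood well above its highest at 24 h.

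In the same comparison KIF26B rose, with a log2 fold change of 1.14 (adjusted p = 0.0183 by edgeR), where 2.84% of tested genes were called higher. KIF26B was not called when replicate 2 or 3 of 24 h, or replicate 1 or 3 of 8 h, was left out. No transport kinesin of 13 was called, against 4.56% of tested genes; 3 had an unadjusted p under 0.05, against 22.8% of tested genes, and DESeq2 called 1 higher, KIFC2, against 5.47%. KIFC2 had a change of 0.49 (adjusted p = 0.0530). KIF5B had -0.34, with all 24 h libraries below those of 8 h (interval -0.62 to -0.06, adjusted p = 0.142). No mitotic kinesin was called without replicate 2 or 3 of 24 h or replicate 1 or 3 of 8 h; 9 were called without untreated replicate 1, 2 without untreated replicate 2 or 3, and 1 without replicate 2 of 8 h. In the fits lacking replicate 2 or 3 of 24 h or replicate 1 of 8 h, 0 genes of any kind were called. The counts over all genes were 53 and 372 when replicates 3 and 2 of 8 h were dropped, and 2545, 563 and 518 when untreated replicates 1, 2 and 3 were.

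Values by library showed where the spread lay. Summed over the 13 tested mitotic kinesins, the level was 2647, 2619 and 2650 CPM at 0 h, 2811, 2649 and 2610 CPM at 8 h, and 2301, 2022 and 1626 CPM at 24 h. The untreated sums differed by little, and the 24 h sums lay below all others and differed most among themselves. Single members differed more at 0 h, and in both directions. In untreated replicates 1 to 3, KIF14 was at 127, 222 and 229 CPM and KIF2C at 328, 257 and 250 CPM. Replicate 1 was the highest and replicate 3 the lowest of the 24 h libraries for 12 of 13 mitotic kinesins; KIF4B was the exception.

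For the 13 tested transport kinesins the sums were 1343, 1491 and 1466 CPM at 0 h and 1451, 1362 and 1237 CPM at 24 h, which overlapped. Untreated replicate 1 was the lowest of its group for 11 of the 13 transport kinesins, KIF1C and KIFC3 being the highest there instead. For the mitotic kinesins it was the lowest in 7 and the highest in 5. The median difference from the untreated mean, over log2(CPM + 0.5), was -0.22, -0.33 and -0.59 in the 24 h libraries for mitotic kinesins, and 0.14, 0.10 and -0.01 for transport kinesins.

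**Figure D4:**
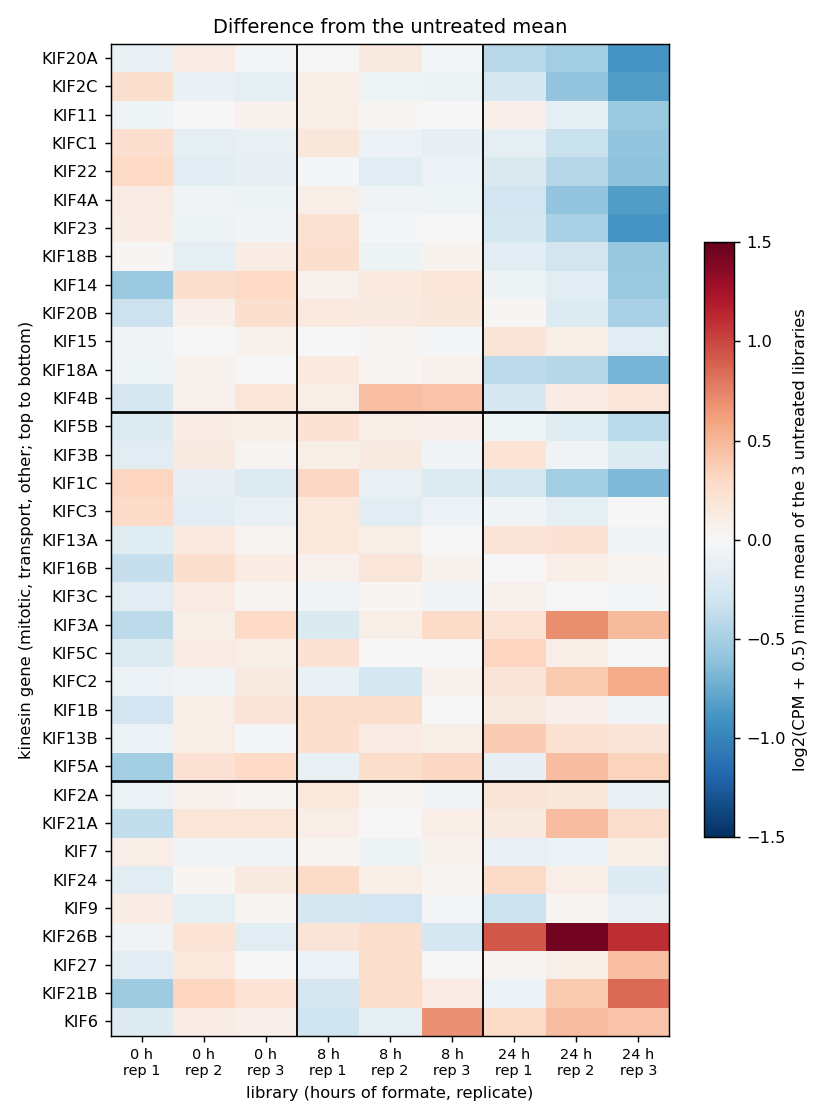
Difference of log2(CPM + 0.5) from the mean of the 3 untreated libraries, for each tested kinesin (rows) in each library (columns); blue is lower and red higher. The 24 h columns of the mitotic block are mostly blue and deepest in replicate 3, except for KIF4B, KIF15 in replicates 1 and 2 and KIF11 in replicate 1; KIF26B is red in all 3 libraries of 24 h.

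**Figure D5:**
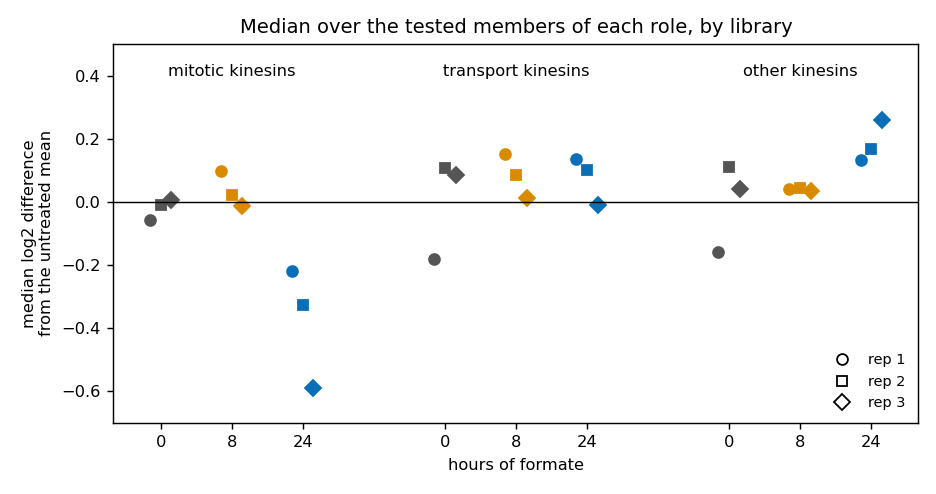
Median over the tested members of each role of the difference from the untreated mean, on the log2(CPM + 0.5) scale, with 1 symbol per library by hours of formate. The mitotic kinesins lie at -0.22, -0.33 and -0.59 at 24 h, below every other library, while the transport kinesins overlap across the groups.

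Genes that work with the motors were read from lists of partners. Of 20 mitotic partners (the kinesin CENPE, passenger complex, centralspindlin and spindle proteins), 6 were called lower and 0 higher at 24 h against 0 h, with 1.77% of tested genes called lower, and their median log2 fold change was -0.45. With the block 13 were lower, against 11.6% of tested genes. The 4 with the smallest p were PLK1, HMMR, AURKA and BUB1, and CENPE, a kinetochore motor, had -0.39 (adjusted p = 0.136 by edgeR). PLK1, a mitotic kinase that binds KIF20A at the central spindle, was at 340 to 425 CPM at 0 h and at 166 to 262 CPM at 24 h (-0.83, adjusted p = 0.0267 by edgeR; 12.5% opposite-strand overlap). AURKA, a kinase of spindle poles, changed by -0.80 (0.0325), the hyaluronan receptor and spindle protein HMMR by -0.56 (0.0282) and the checkpoint kinase BUB1 by -0.52 (0.0378).

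Of 12 cell cycle genes, 1 was called lower (CCNB1), against 1.77% of tested genes, and 2 higher (CCNE2 and CDKN1A), against 2.47%, at 24 h against 0 h. With the block 5 were lower, against 11.6%, and 4 higher, against 12.6%. CCNE2 has 37.1% and FOXM1 15.9% of exon bases under an opposite-strand gene. FOXM1 and MYBL2, transcription factors of G2 genes, had changes of -0.62 (adjusted p = 0.0502 by edgeR, 0.000908 with the block, 0.00437 by DESeq2) and -0.44 (0.238, 0.00696 and 0.197). Their part in the kinesin results was not tested.

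Of 19 tested transport partners (kinesin light chains, the kinesin-2 subunit KIFAP3, adaptors), 1 was called higher and 0 lower, against 4.25% of tested genes in either direction, with a median of -0.04. TRAK1, the adaptor that links KIF5 motors to mitochondria, was at 25.0 to 31.2 CPM at 0 h and at 41.9 to 43.3 CPM at 24 h (0.57, adjusted p = 0.0280 by edgeR). KLC2, a light chain of conventional kinesin, had -0.45 (0.0566, and 0.00297 with the block), with 9.58% opposite-strand overlap. FEZ1, a KIF5 cargo adaptor, had 0.31 (0.150 and 0.0335), and MAP7D1, a microtubule protein that recruits KIF5, had -0.34 (0.169 and 0.0267). With the block 2 of the 19 were called lower, against 11.6% of tested genes, and 2 higher, against 12.6%.

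Of 20 tested subunits and regulators of dynein, the motor that moves towards minus ends, 1 was called lower, against 1.77% of tested genes, and 0 higher, and the median was -0.19, against 0.01 over all genes. The light chain DYNLL1 fell from 216 to 306 CPM at 0 h to 160 to 180 CPM at 24 h (-0.56, adjusted p = 0.0366 by edgeR). The dynactin subunits DCTN3 and DCTN2 had -0.39 (0.0600, and 0.00768 with the block) and -0.35 (0.117 and 0.0116), and the intermediate chain DYNC1I2 had -0.28 (0.0784 and 0.0170). With the block 6 of the 20 were called lower, against 11.6% of tested genes.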

How the data were processed

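The authors deposited raw counts per Ensembl gene for the 9 libraries in 1 table. Per the submitters' processing notes, bcl2fastq 2.20.0.422 and STAR 2.7.4a were used with GRCh38; the counting program, annotation and strand setting are not given in the sources used here. The symbol table named 23619 of the 23727 genes, and coordinates and exon lengths came from GENCODE release 29 (GRCh38), which held 23252 of them.

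Genes were filtered with filterByExpr, scaled with TMM and fitted with edgeR 4.0.16 in R 4.3.3, 1 mean per group over all 9 libraries, with two-sided quasi-likelihood tests, Benjamini-Hochberg adjustment over all 15273 tested genes and a threshold of 0.05. The script was tested on simulated data with larger changes than those of the mitotic kinesins, less spread than these libraries and no replicate effect. That test checks the code and not the detection of changes of the size reported here. Alternatives were DESeq2 1.42.0, other size factors, no filter, a replicate block, and fits with fewer libraries. Between 0 h and 24 h, same-numbered libraries deviated together in all 3 pairs (r = 0.367, 0.164 and 0.251 across genes). Untreated replicate 3 and replicate 2 of 24 h, of unlike number, also did (0.27). Between 0 h and 8 h the same-numbered pairs had 0.476, 0.432 and 0.415. The titles' numbers were taken to pair 0 h with 24 h and 0 h with 8 h. Between 8 h and 24 h the same-numbered pairs had 0.423, 0.0367 and 0.404, and for the low value the numbers were not taken to pair these. Numbers that pair 0 h with both other groups would also pair 8 h with 24 h. Whether the numbers pair the libraries is therefore not settled. The block fit still held all 9 libraries, with 1 effect per replicate number shared by the 3 groups. Its results for 24 h against 0 h therefore rest also on that pairing of 8 h with 24 h. Per-library values were given for members called in a comparison with 24 h, for the 3 most abundant members of each role and for KIF2A, and up to 4 genes with the smallest p from each partner list. The members and lists were chosen with earlier results of these data known. KIF3A and KIFC2 were given by library after their values were seen. Promoter windows came from RefSeq (GRCh38.p14).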

Additional observations from a re-analysis of the deposited data

Results flagged for a closer look

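In 5 of 35 tested kinesins the change by 24 h differed from the change by 8 h, against 4.56% of tested genes. Both changes were taken from the untreated libraries. The test was 24 h against 8 h in edgeR's quasi-likelihood model, with p-values adjusted over all genes. The difference was -0.58 on the log2 scale for KIF18A, -0.63 for KIF20A, -0.59 for KIF23, -0.55 for KIF4A and 1.14 for KIF26B. For each of these genes the values at 24 h and at 8 h did not overlap. All 24 h libraries lay below all of 8 h in 16.2% of tested genes. The 5 were picked by their calls in the same values, so their lack of overlap adds no separate support. With replicate 2 of 24 h left out, or replicate 3, 0 of the 5 were called, and 0 of all genes tested. Leaving out replicate 1 or replicate 3 of 8 h also left 0 of the 5 called. KIF26B then had adjusted p = 0.0755 and 0.0576 by edgeR.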

How the results depend on the processing

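Other size factors (RLE) and no filter on low counts kept every count of calls within 1.5 times of its value, in all 3 comparisons. At 24 h against 0 h, DESeq2 called 1656 genes and 6 mitotic kinesins lower, the replicate block 3687 genes, 8 mitotic and 3 transport kinesins, and a fit of only these groups 124 genes and 0 mitotic kinesins; edgeR on all libraries called 649 genes, 3 mitotic and 0 transport kinesins. At 24 h against 8 h, DESeq2 called 1486 genes and 1 transport kinesin, the replicate block 3130 genes, 8 mitotic and 3 transport kinesins, and a fit of only these groups 1787 genes and 1 transport kinesin; edgeR on all libraries called 696 genes, 4 mitotic and 0 transport kinesins. The numbers were not taken to pair 8 h with 24 h, although the block shares its replicate effects over all 3 groups.

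Fits that left out 1 library or 1 replicate number, with and without the replicate block (the blocked ones chosen after seeing the data), called 0 to 3816 genes, 0 to 11 mitotic kinesins lower and 0 to 4 transport kinesins at 24 h against 0 h; the medians ran from -0.50 to -0.24 (mitotic) and from -0.059 to 0.20 (transport). At 24 h against 8 h they called 0 to 5432 genes, 0 to 11 mitotic and 0 to 4 transport kinesins, with mitotic medians from -0.58 to -0.29. At 8 h against 0 h they called 0 genes, and the transport median ran from -0.040 to 0.17. The cause was not tested. The mitotic median stayed below 0 in all of these fits with 24 h libraries.

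Of 1785 alternative values of single kinesins, 29 changed sign and moved by more than the standard error, 0 of them for a kinesin in a comparison where it was called. At 24 h against 0 h these were KIF11 (-0.37 to 0.0015 over fits that left out libraries), KIF15 (-0.062 to 0.17), KIF16B (-0.14 to 0.15), KIF1B (-0.12 to 0.19), KIF20B (-0.50 to 0.015), KIF24 (-0.12 to 0.27), KIF3C (-0.10 to 0.078), KIF5A (-0.034 to 0.36), KIF5C (-0.051 to 0.25) and KIFC3 (-0.17 to 0.067), so their direction is not settled. Depth limited KIF4B and KIF6, with at most 23 and 22 counts in a library, and the 3 kinesins under the filter.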
